A study of Mus musculus with 6 samples.

Results

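BMP, TGF-β and activin signaling was examined in articular chondrocytes through 50 listed genes, of which 49 had a probe set that names that gene alone on the arrays. Gdf15 was not analysed here. The members were chosen by gene symbol, as 18 ligand or ligand subunit genes, 11 receptor genes, 8 Smad genes, 9 genes of extracellular regulators, the decoy receptor gene Bambi and 3 target genes, out of 22180 genes tested in all. The cells were primary articular chondrocytes of wild-type (WT) ICR mice 5 days old, taken from the cartilage of the knee and grown as a monolayer in medium with serum. They were left untreated (3 arrays) or given the proinflammatory cytokine IL-1β (IL-1b in the labels; 3 arrays), and RNA was taken at 24 h. Each group has biological replicates numbered 1 to 3 in the labels, and neither the labels nor the methods say how many animals a replicate holds. The methods name more replicates per cell type than the 3 arrays per group analysed here. All values are log2 signals that the authors normalized with RMA, and per-array values are given in the order of replicates 1, 2 and 3.

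Ligands of this superfamily are secreted dimers that bind a pair of type II and a pair of type I receptor kinases on the cell surface. TGF-βs, activins and GDF11 mainly activate Smad2 and Smad3, most BMPs as well as GDF5 and GDF6 activate Smad1, Smad5 and Smad9, and all of these Smads work with Smad4 in the nucleus. Secreted antagonists trap the ligands, latent TGF-β is stored in the matrix, and inhibitory Smads feed back on the receptors. In cartilage, BMPs and GDF5 are known for driving chondrocyte formation and matrix synthesis, and TGF-β for holding back hypertrophy.

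Of the 49 members measured, 19 rose and 7 fell in chondrocytes treated with IL-1β, at an adjusted p under 0.05 from limma over all genes. That is 53.1% of the members, where 17.2% of all genes passed (8.32% higher and 8.88% lower). Among the 13932 genes with at least 1 group mean above the background level, 26% passed, and 47 of the 49 members lay above that level in both groups. The background level was 4.569, below which lay 95% of 1422 probe sets, by mean signal, for receptors of smell, pheromones and taste. The largest rises among the members were those of Ltbp2 (4.94-fold), which encodes a fibrillin-binding matrix protein, Tgfbr3 (4.06-fold), which encodes the co-receptor betaglycan, Inhba (4.05-fold), which encodes the βA subunit of activin, and Bmp3. The largest falls were those of the ligand gene Bmp7 (2.32-fold) and of Bambi (2.13-fold). With the log2 fold change limit of 1 that the methods name, 8 members were higher and 2 were lower, where 2.25% and 1.45% of all genes were (3.7% in either direction). The median log2 fold change was 0.15 over the members and -0.02 over all genes, and the median size of the change, regardless of direction, was 0.41 and 0.15. The groups did not overlap for 22 members with IL-1β above and for 14 with IL-1β below, where 15% and 18% of all genes did so (33% in either direction). Without untreated replicate 1 or 2 or IL-1β replicate 1 or 3, only 4 members passed as lower. The members were chosen with earlier results of these data known, so their share is a description and was not tested as a set.

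**Figure D1:**
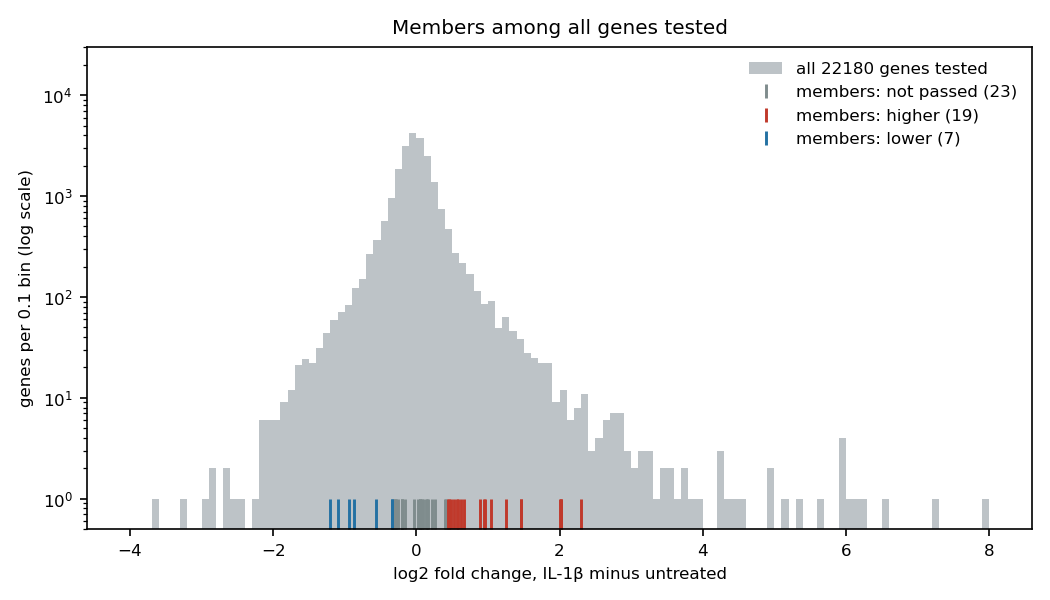
Histogram of the log2 fold change (IL-1β minus untreated, x axis) of 22180 genes in bins of 0.1, with gene counts on a log scale (y axis), and a tick for each of the 49 members. The 19 members that rose lie between 0.44 and 2.30 and the 7 that fell between -1.21 and -0.34.

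The arrays had medians between 4.66 and 4.73 and correlated at 0.981 to 0.990 across probe sets within a group and at 0.965 to 0.977 between groups. All 12 chondrocyte markers, among them Col2a1 and Acan, lay above background in both groups and fell with IL-1β, and their summed linear signal went from a range of 36640 to 39770 on untreated arrays to 17860 to 20140 on treated arrays. In bulk RNA, fewer cells of a type and less RNA per cell cannot be told apart. Of 8 macrophage markers 2 rose, Cd68 and Cd14, and 5 were under background in both groups, among them Ptprc, Adgre1 and Itgam, with sums of 167.1 to 206.8 untreated and 319.1 to 351.1 treated. Of 7 fibroblast or synoviocyte markers 3 rose and 2 fell (sums of 4877 to 5619 and 4953 to 5727), and of 6 endothelial markers 1 rose and 3 were under background in both groups (114.7 to 139.1 and 119.1 to 135.7). Of 7 osteoblast or osteoclast markers 1 rose and 2 fell (233.1 to 309.3 and 298.7 to 400.3), and of 5 markers of muscle or fat none passed (141.2 to 162.7 and 108.5 to 152.1). The part of these markers in the changes below was not tested.

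**Figure D2:**
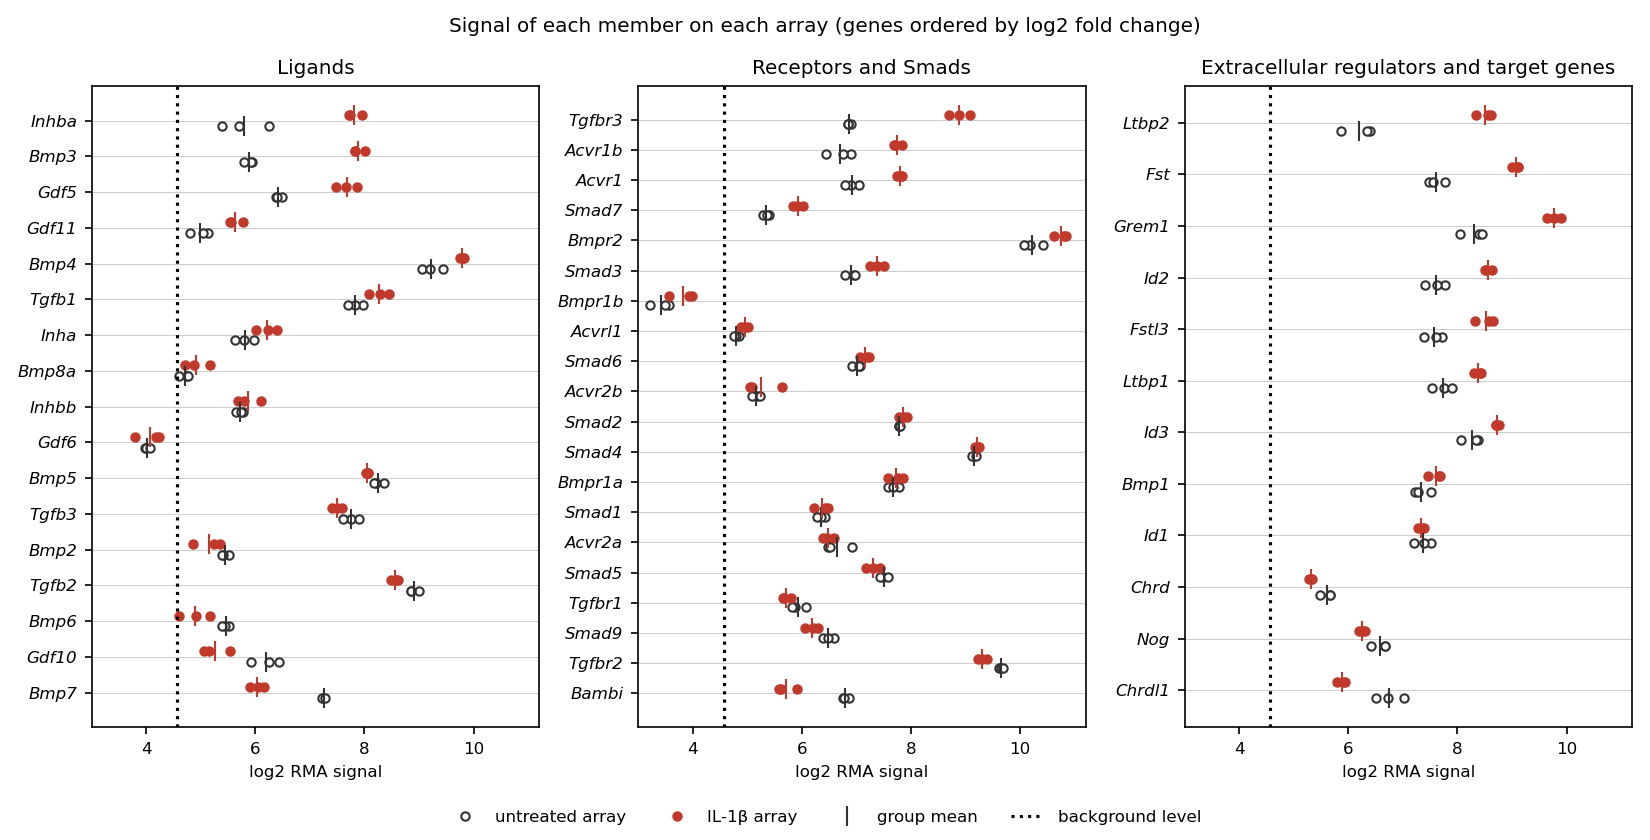
Log2 RMA signal (x axis) of each of the 49 members on each of the 6 arrays, open circles for untreated and filled circles for IL-1β arrays, with a bar at each group mean and a dotted line at the background level of 4.569. Signals of different genes come from different probes and are not compared. For Ltbp2, Tgfbr3, Inhba and Bmp3 the 3 treated arrays lie far to the right of the untreated ones, and for Bmp7 and Bambi to the left.

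Of 17 measured ligand genes, 6 rose and 4 fell, a share of 58.8% where 17.2% of all genes and 26% of those above background passed. Activin is a dimer of β subunits, and inhibin pairs a β subunit with the α subunit. Inhba, whose product forms activin A, had log2 signals of 5.71, 6.25 and 5.40 on untreated arrays and 7.72, 7.95 and 7.74 with IL-1β. The rise was 2.02 on the log2 scale (adjusted p = 1.64e-04 from limma, standard error 0.20), from 5.78 ± 0.43 to 7.80 ± 0.13 (SD, n = 3 arrays each). The groups did not overlap, and the untreated arrays were spread more widely than the treated ones, with replicate 2 the highest in both groups. Inhbb, which encodes the βB subunit, had a log2 fold change of 0.13 (95% confidence interval -0.15 to 0.42) and did not pass. The inhibin α subunit gene Inha went from 5.80 ± 0.17 to 6.21 ± 0.20 (SD, n = 3 arrays each), a log2 fold change of 0.41 that did not pass (adjusted p = 0.0693 from limma). Its treated arrays all lay above the untreated ones, and Inha passed without replicate 2 of either group (adjusted p = 0.0474 without untreated replicate 2 and 0.0343 without IL-1β replicate 2).

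Among 7 BMP ligand genes, Bmp3 and Bmp4 rose, Bmp7 and Bmp6 fell, and Bmp2, Bmp5 and Bmp8a did not pass. The share that passed was 57.1%, where 17.2% of all genes and 26% of those above background did. Bmp3 encodes an atypical BMP that opposes bone-forming BMPs, and it read 5.94, 5.92 and 5.80 on untreated arrays against 8.01, 7.83 and 7.83 with IL-1β. Its log2 fold change was 2.00 (adjusted p = 4.28e-06, standard error 0.10), the smallest adjusted p among the members, and the groups were far apart relative to their spread (SD 0.08 untreated and 0.11 treated). Bmp7, whose product is known for supporting cartilage matrix synthesis, changed the other way, from 7.25, 7.22 and 7.28 to 6.05, 6.16 and 5.90. Bmp7 fell by 1.21 on the log2 scale (adjusted p = 6.15e-05, standard error 0.10), and its untreated arrays were nearly equal (SD 0.03). Bmp4 encodes a close relative of BMP2 with roles in cartilage and bone formation. It measured 9.05, 9.44 and 9.20 untreated and 9.81, 9.75 and 9.83 treated, a rise of 0.57 (adjusted p = 0.00899, standard error 0.12). The treated arrays of Bmp4 were closer together (SD 0.04) than the untreated ones (SD 0.20). Bmp6, which encodes a BMP of hypertrophic cartilage, had 5.52, 5.45 and 5.39 untreated and 4.92, 5.18 and 4.60 treated. Bmp6 fell by 0.56 (adjusted p = 0.0281, standard error 0.14), with 1 treated array, replicate 3, just above the background level. The call for Bmp6 was lost without any 1 array except IL-1β replicate 2 (adjusted p = 0.0616 to 0.0939 from limma). Bmp2 (log2 fold change -0.29, interval -0.59 to 0.02) and Bmp5 (-0.20, interval -0.41 to 0.01) had all treated arrays below all untreated ones without passing, and Bmp8a (0.21, interval -0.08 to 0.51) overlapped.

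The GDF genes encode growth and differentiation factors of the same superfamily, and of 4 measured, 2 rose and 1 fell. That is 75%, where 17.2% of all genes and 26% of those above background passed. Gdf5, which encodes a factor of joint formation in the embryo, read 6.50, 6.38 and 6.40 on untreated arrays and 7.67, 7.87 and 7.48 on treated ones. The rise of 1.25 (adjusted p = 1.26e-04 from limma, standard error 0.12), or 2.38-fold, exceeded the spread of either group (SD 0.06 and 0.19). A dimmer probe set of Gdf5 lay under background in both groups (means 4.07 and 4.19) and had a log2 difference of 0.13, and with the mean of both probe sets the log2 fold change was 0.69 (adjusted p = 0.00208). Gdf11, which encodes a relative of myostatin, measured 5.13, 5.04 and 4.81 untreated and 5.55, 5.53 and 5.78 treated, a rise of 0.63 (adjusted p = 0.00664, standard error 0.12). Gdf10, also known as Bmp3b for its likeness to Bmp3, moved opposite to Bmp3. It fell from 6.43, 6.25 and 5.92 to 5.54, 5.16 and 5.07, by 0.94 (adjusted p = 0.00425, standard error 0.16), with the groups apart. Gdf6 was under background in both groups, and no fold is given.

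The 3 TGF-β isoform genes showed smaller differences. Tgfb1 was higher with IL-1β (7.97, 7.82 and 7.69 untreated and 8.45, 8.08 and 8.28 treated), by 0.44 on the log2 scale (adjusted p = 0.0396 from limma, standard error 0.12). Tgfb2 fell by 0.34 (adjusted p = 0.0376, standard error 0.09), from 8.86, 9.00 and 8.85 to 8.58, 8.49 and 8.62. Tgfb3, with 7.75 ± 0.14 and 7.50 ± 0.10 (SD, n = 3 arrays each), did not pass (log2 fold change -0.26, interval -0.50 to -0.01, adjusted p = 0.158). In all of them the arrays of the groups did not overlap, above for Tgfb1 and below for Tgfb2 and Tgfb3. Of all genes, 15% did not overlap with IL-1β above and 18% with IL-1β below. Both calls were close to the threshold. The call of Tgfb1 was lost when untreated replicate 2 or 3 was left out, when IL-1β replicate 1 or 3 was (adjusted p = 0.0815 to 0.154 over these), and when each array was centered on its median (adjusted p = 0.0573). The call of Tgfb2 was lost when any 1 array was left out (adjusted p = 0.0717 to 0.113) and when the replicate number entered as a block (adjusted p = 0.0510).

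**Figure D3:**
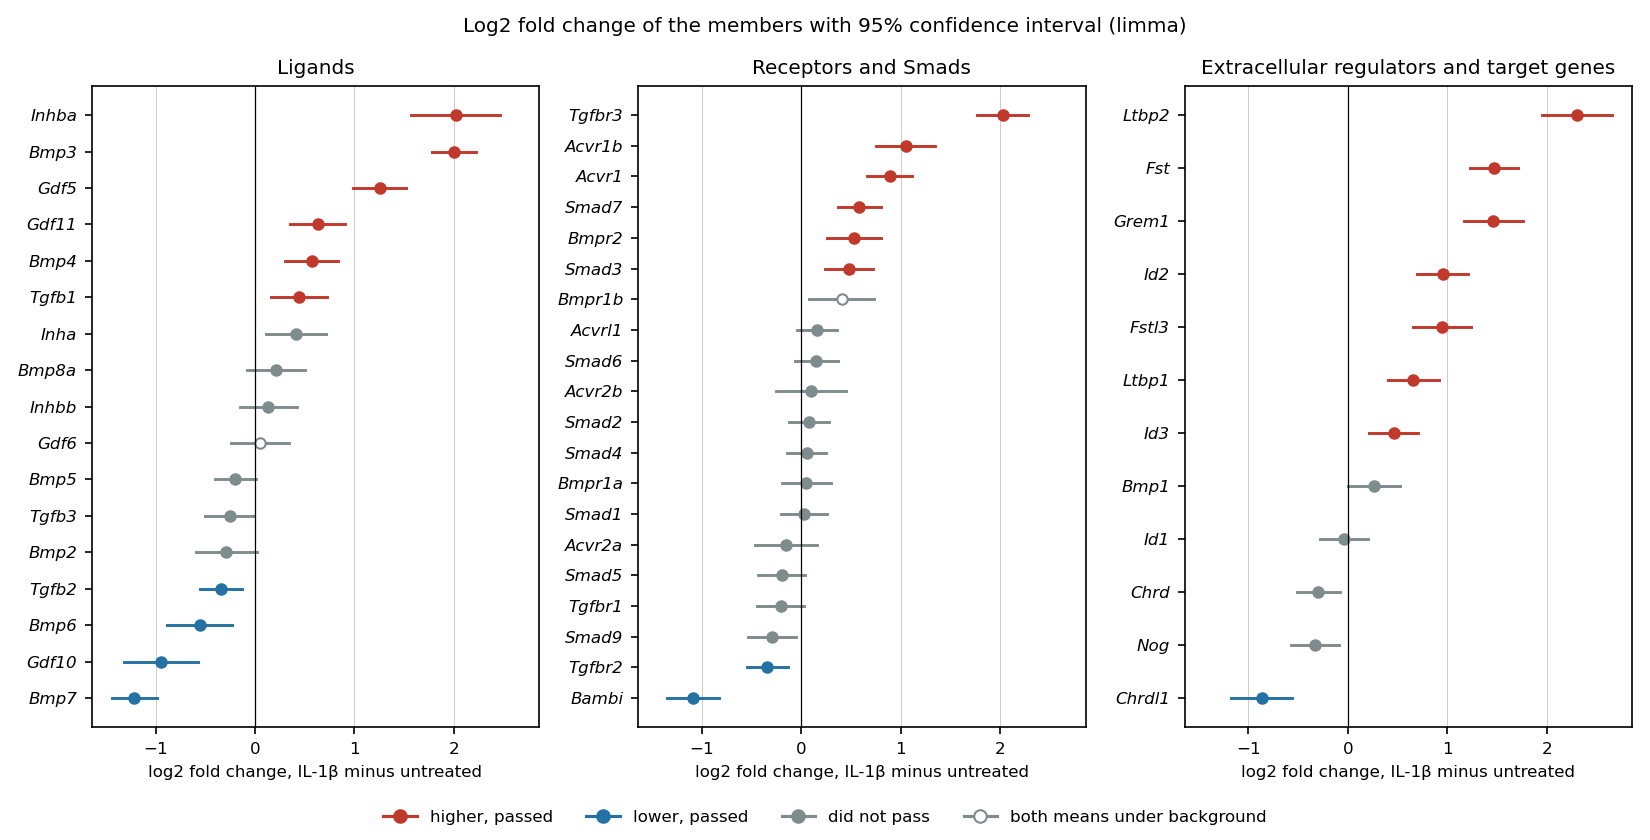
Log2 fold change (IL-1β minus untreated, x axis) of the 49 members in 3 panels by role, with 95% confidence intervals from limma as lines. Red marks members that passed as higher, blue as lower and gray those that did not pass, and open symbols mark Gdf6 and Bmpr1b, whose means were both under background. Ligand genes span -1.21 (Bmp7) to 2.02 (Inhba), and most Smad genes lie near 0.

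Of 11 receptor genes, 4 rose and 1 fell, a share of 45.5% where 17.2% of all genes and 26% of those above background passed. Tgfbr3, the gene of betaglycan, which presents TGF-β2 to the signaling receptors and binds inhibin, had the largest change. Its signals were 6.90, 6.84 and 6.84 on untreated arrays and 8.88, 8.70 and 9.08 with IL-1β, a rise of 2.02 on the log2 scale (adjusted p = 8.45e-06 from limma, standard error 0.11). The untreated arrays of Tgfbr3 were nearly equal (SD 0.04), and every treated array stood well above them. Acvr1b, which encodes the activin type I receptor ALK4, went from 6.91, 6.44 and 6.75 to 7.84, 7.69 and 7.71, a rise of 1.05 (adjusted p = 6.13e-04, standard error 0.13). Acvr1, which encodes the type I receptor ALK2 for BMPs, measured 7.04, 6.90 and 6.79 untreated and 7.82, 7.74 and 7.84 treated, a rise of 0.89 (adjusted p = 3.51e-04, standard error 0.10). For both, the groups were apart and the treated arrays were closer together than the untreated ones. Bmpr2, the BMP type II receptor gene, had 10.42, 10.19 and 10.08 untreated and 10.85, 10.61 and 10.80 treated. The rise of Bmpr2 was 0.53 (adjusted p = 0.0149, standard error 0.12), and it did not pass without untreated replicate 3 (adjusted p = 0.0651) or without IL-1β replicate 1 or 3 (adjusted p = 0.0693 and 0.0527).

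Tgfbr2, the TGF-β type II receptor gene, fell by 0.34 (adjusted p = 0.0317 from limma, standard error 0.09), from 9.61, 9.65 and 9.69 to 9.29, 9.39 and 9.24. The groups did not overlap, but Tgfbr2 did not pass without any 1 array except IL-1β replicate 2 (adjusted p = 0.0621 to 0.114) or after a second quantile normalization (adjusted p = 0.0542). Tgfbr1, which encodes the type I receptor for TGF-β, had a log2 fold change of -0.21 (interval -0.44 to 0.03, adjusted p = 0.243) and did not pass. All treated arrays of Tgfbr1 lay below the untreated ones. The activin type II receptor genes Acvr2a (-0.15, interval -0.46 to 0.16) and Acvr2b (0.10, interval -0.26 to 0.45) and the BMP type I receptor gene Bmpr1a (0.05, interval -0.20 to 0.30) overlapped between the groups. Acvrl1, which encodes ALK1, a receptor known mainly from endothelium, had 0.16 (interval -0.05 to 0.36). It did not pass, though its treated arrays all lay above the untreated ones. Bmpr1b, a BMP type I receptor gene of cartilage condensations, was under background in both groups (3.42 ± 0.18 and 3.83 ± 0.23, SD, n = 3 arrays each), so that no fold is given. Bambi encodes a membrane protein that resembles a type I receptor without a kinase and dampens TGF-β and BMP signals. It fell from 6.75, 6.86 and 6.78 to 5.61, 5.92 and 5.58, by 1.09 (adjusted p = 2.44e-04, standard error 0.11), and the groups did not overlap.

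The bases before the start of a gene are shown for 5 members that rose and for Gdf10, which fell. They were chosen after their values were seen, as examples of matches to 4 motifs searched on both strands. The motifs were CAGAC, the core that Smad3 and Smad4 bind (GTCTG on the other strand), GGCGCC, a GC-rich site known for Smad1 and Smad5, TGANTCA, the site of AP-1, and the consensus of NF-κB. The sequences come from RefSeq on the GRCm38.p6 build, and matched 32 of the 49 members, 14 of them among those that rose. Among all 32851 promoter stretches of 250 bases, 42.2% held CAGAC, 9.59% GGCGCC, 6.75% TGANTCA and 7.25% the NF-κB consensus. Among the 32 members, 17 held CAGAC, 8 held GGCGCC, none held TGANTCA and 2, Acvr1b and Tgfb1, held the NF-κB consensus. A member was counted when any of its stretches held the motif, whereas the shares above count each stretch. The counts and shares are therefore not like measures, and a difference between them was not tested. CAGAC was held by 5 of the 14 members that rose and by 4 of the 4 that fell among those 32, GGCGCC by 3 and 0, and the NF-κB consensus by 2 and 0. Fstl3, Ltbp1, Bmpr2 and Tgfb1 among the members that rose, and Bmp6, Tgfb2 and Tgfbr2 among those that fell, also held a match and are not shown. A match is a description of letters and not a site shown to be used. Matches are in capitals, and those of different motifs did not overlap. The stretch of Acvr1b (chr15:101173822-101174071, plus strand) holds 1 match to the NF-κB consensus, and that of Gdf10 (chr14:33923337-33923586, plus strand) holds 1 CAGAC.
Acvr1b: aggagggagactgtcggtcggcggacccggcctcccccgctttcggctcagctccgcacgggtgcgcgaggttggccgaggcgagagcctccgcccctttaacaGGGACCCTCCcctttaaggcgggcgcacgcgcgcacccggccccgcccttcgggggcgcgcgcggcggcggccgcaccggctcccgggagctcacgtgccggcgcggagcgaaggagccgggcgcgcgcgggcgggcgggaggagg
Gdf10: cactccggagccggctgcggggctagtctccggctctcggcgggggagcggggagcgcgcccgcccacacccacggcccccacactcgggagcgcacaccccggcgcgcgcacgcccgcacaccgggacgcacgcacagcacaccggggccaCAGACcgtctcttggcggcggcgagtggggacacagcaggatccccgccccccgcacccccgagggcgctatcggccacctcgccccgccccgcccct

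Of 8 Smad genes, 2 rose and none fell. That share of 25% is near the 26% of genes above background that passed, where 17.2% of all genes did. Smad7 encodes an inhibitory Smad that blocks type I receptors and is itself induced by TGF-β. It read 5.39, 5.28 and 5.37 on untreated arrays and 6.03, 5.84 and 5.92 with IL-1β, a rise of 0.58 on the log2 scale (adjusted p = 0.00287 from limma, standard error 0.09). All treated arrays of Smad7 lay above the untreated ones. Smad3, which carries TGF-β and activin signals, rose by 0.48 (adjusted p = 0.0139, standard error 0.11), from 6.78, 6.95 and 6.98 to 7.26, 7.38 and 7.51. Smad3 did not pass without untreated replicate 1 (adjusted p = 0.0541) or IL-1β replicate 3 (adjusted p = 0.0548). Smad6, the other inhibitory Smad gene, had a log2 fold change of 0.15 (interval -0.07 to 0.37). Smad2 (0.07, interval -0.13 to 0.27) and the shared partner Smad4 (0.05, interval -0.14 to 0.25) did not pass, and their intervals include 0. Among the Smad genes of BMP signals, Smad1 had 0.03 (interval -0.21 to 0.26), Smad5 had -0.20 (interval -0.43 to 0.04) and Smad9 had -0.30 (interval -0.54 to -0.05, adjusted p = 0.101). Only Smad9 had all treated arrays below the untreated ones, and it passed when genes under background were left out (adjusted p = 0.0491).

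Of 9 genes of extracellular regulators, 5 rose and 1 fell, a share of 66.7% where 17.2% of all genes and 26% of those above background passed. The activin-binding proteins come first. Fst encodes follistatin, which traps activin almost irreversibly, and it read 7.49, 7.78 and 7.55 untreated and 9.11, 9.00 and 9.11 treated. Fst rose by 1.47 on the log2 scale (adjusted p = 3.38e-05 from limma, standard error 0.11), or 2.76-fold. Fstl3, which encodes a related activin and myostatin binder, measured 7.38, 7.72 and 7.60 untreated and 8.57, 8.66 and 8.32 treated, a rise of 0.95 (adjusted p = 9.98e-04, standard error 0.13). In both genes the groups did not overlap.

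Of 4 BMP antagonists, Grem1 rose, Chrdl1 fell, and Nog and Chrd did not pass. The share that passed was 50%, where 17.2% of all genes and 26% of those above background did. Grem1 encodes gremlin 1, which binds BMP2, BMP4 and BMP7. Its signals were 8.40, 8.05 and 8.46 untreated and 9.64, 9.77 and 9.89 treated, a rise of 1.46 (adjusted p = 9.97e-05, standard error 0.13), or 2.76-fold, with the groups well apart. Chrdl1, which encodes chordin-like 1, fell by 0.87 (adjusted p = 0.00221, standard error 0.13), from 7.01, 6.50 and 6.73 to 5.95, 5.80 and 5.90. Nog, the noggin gene, had 6.67, 6.68 and 6.41 untreated and 6.27, 6.20 and 6.30 treated (log2 fold change -0.33, interval -0.57 to -0.09, adjusted p = 0.0687). Chrd, the chordin gene, had 5.49, 5.67 and 5.66 untreated and 5.34, 5.27 and 5.31 treated (log2 fold change -0.30, interval -0.51 to -0.08, adjusted p = 0.0640). For Chrdl1, Nog and Chrd all treated arrays lay below the untreated ones, opposite to Grem1, and 18% of all genes did so too. Nog passed without untreated replicate 3 (adjusted p = 0.0426), and Nog and Chrd both passed when genes under background were left out (adjusted p = 0.0315 and 0.0267) and when each array was centered on its median (adjusted p = 0.0485 and 0.0471). Bmp1 encodes not a ligand but a protease that cleaves procollagen and chordin, and its log2 fold change was 0.26 (interval 0.00 to 0.52, adjusted p = 0.175).

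Both latent TGF-β binding protein genes among the members were higher. Outside the members, Ltbp4 fell and Ltbp3 did not pass, as given below. Ltbp2 belongs to this family, but its product is known for binding fibrillin and not latent TGF-β. It had signals of 6.40, 5.87 and 6.34 untreated and 8.57, 8.35 and 8.61 treated, a rise of 2.30 (adjusted p = 2.18e-05 from limma, standard error 0.15), the largest among the members. Ltbp1, whose product anchors latent TGF-β in the matrix, rose by 0.66 (adjusted p = 0.00392, standard error 0.11), from 7.75, 7.89 and 7.54 to 8.42, 8.30 and 8.44. In both genes the treated arrays were closer together than the untreated ones and lay above all of them.

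The stretches before the start of Grem1 (chr2:113758649-113758898, minus strand) and Ltbp2 (chr12:84876492-84876741, minus strand) are shown with their matches in capitals. Grem1 holds 1 CAGAC and 1 GGCGCC, and Ltbp2 holds CAGAC once on each strand.
Grem1: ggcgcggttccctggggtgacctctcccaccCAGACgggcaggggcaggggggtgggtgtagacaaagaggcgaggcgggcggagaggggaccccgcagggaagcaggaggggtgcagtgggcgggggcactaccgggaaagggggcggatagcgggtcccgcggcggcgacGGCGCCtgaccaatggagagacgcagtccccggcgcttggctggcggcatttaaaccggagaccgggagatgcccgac
Ltbp2: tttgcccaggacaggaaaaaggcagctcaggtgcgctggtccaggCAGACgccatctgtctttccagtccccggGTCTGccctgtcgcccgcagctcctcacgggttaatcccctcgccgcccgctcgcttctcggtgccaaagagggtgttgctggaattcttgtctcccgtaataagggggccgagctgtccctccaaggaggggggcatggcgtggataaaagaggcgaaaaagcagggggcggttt

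**Figure D4:**
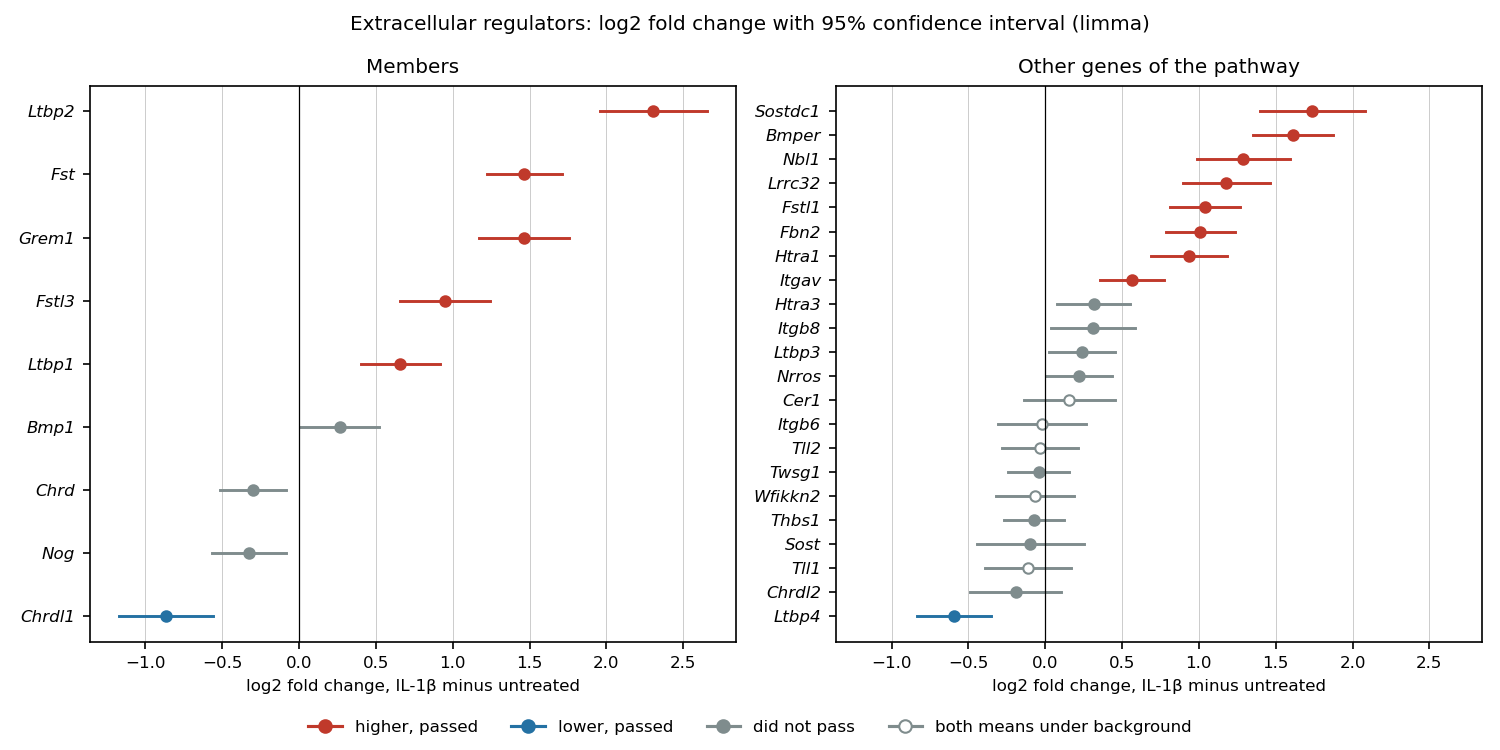
Log2 fold change (IL-1β minus untreated, x axis) with 95% confidence intervals from limma for the 9 extracellular regulators among the members (left) and 22 others of the pathway (right). Red marks genes that passed as higher, blue as lower, gray those that did not pass, and open symbols genes with both means under background. On the left 5 rose and 1 fell, and on the right 8 rose and 1 fell.

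Id genes encode inhibitors of basic helix-loop-helix transcription factors and are used as readouts of BMP signals through Smad1, Smad5 and Smad9. The 3 members of this family differed. Id2 read 7.41, 7.78 and 7.62 on untreated arrays and 8.53, 8.51 and 8.63 with IL-1β, and rose by 0.95 on the log2 scale (adjusted p = 5.03e-04 from limma, standard error 0.11). Id3 rose by 0.46 (adjusted p = 0.0193, standard error 0.11), from 8.06, 8.39 and 8.34 to 8.77, 8.70 and 8.70. Id1, with 7.21, 7.52 and 7.40 untreated and 7.27, 7.39 and 7.35 treated, did not pass (log2 fold change -0.04, interval -0.28 to 0.20). The arrays of the groups overlapped for Id1 only. Id3 did not pass without untreated replicate 1 (adjusted p = 0.0556) or without IL-1β replicate 1 or 3 (adjusted p = 0.0794 and 0.0523), whereas Id2 passed without each of the 6 arrays. Differences between the Id genes were not tested. The stretch before the start of Id2 (chr12:25096093-25096342, minus strand) holds 1 GGCGCC, and that of Id3 (chr4:136143572-136143821, plus strand) holds CAGAC once on each strand, in capitals.
Id2: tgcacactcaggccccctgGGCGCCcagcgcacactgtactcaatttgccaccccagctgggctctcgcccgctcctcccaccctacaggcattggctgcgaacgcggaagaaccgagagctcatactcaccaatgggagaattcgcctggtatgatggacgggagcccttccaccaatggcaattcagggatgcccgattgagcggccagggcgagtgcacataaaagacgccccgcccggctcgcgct
Id3: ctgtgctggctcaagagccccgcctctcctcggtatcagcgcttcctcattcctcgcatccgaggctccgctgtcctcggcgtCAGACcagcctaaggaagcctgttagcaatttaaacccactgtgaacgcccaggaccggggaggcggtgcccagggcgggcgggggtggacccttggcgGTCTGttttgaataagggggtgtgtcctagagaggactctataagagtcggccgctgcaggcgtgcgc

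Other genes of the pathway were taken from a list of 72, of which 63 had a probe set of their own. Of these, 15 rose and 7 fell (34.9%, against 17.2% of all genes), and their median log2 fold change was -0.01. Among 22 extracellular regulators, 8 rose and 1 fell (40.9%). They included the BMP antagonist genes Sostdc1 (3.34-fold, log2 fold change 1.74, adjusted p = 8.57e-05 from limma) and Nbl1 (2.44-fold, 1.29, adjusted p = 2.23e-04), and Bmper, which encodes a chordin-like BMP binder (3.05-fold, 1.61, adjusted p = 3.01e-05). Lrrc32, which encodes GARP, a surface anchor of latent TGF-β, rose 2.26-fold (log2 fold change 1.18, adjusted p = 2.52e-04). Against this direction, Ltbp4, another gene of the latent TGF-β binding family, fell by 0.59 on the log2 scale (adjusted p = 0.00463). Ltbp3, of the same family, did not pass (log2 fold change 0.24, interval 0.02 to 0.45, adjusted p = 0.137). Twsg1, which encodes a BMP modulator (-0.04, interval -0.24 to 0.16), and Thbs1, which encodes thrombospondin 1, an activator of latent TGF-β (-0.08, interval -0.27 to 0.12), did not pass.

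Among 13 genes that regulate Smads, 4 rose and 1 fell (38.5%, where 17.2% of all genes and 26% of those above background passed). Tgif1, a Smad corepressor gene, rose by 0.55, Ldlrad4 by 0.49 and the ubiquitin ligase genes Smurf2 and Smurf1 by 0.49 and 0.46 on the log2 scale. Pmepa1, a TGF-β target whose product dampens the pathway, fell by 0.54 (adjusted p = 0.0160 from limma). Smurf1, Ldlrad4 and Pmepa1 lost their calls without IL-1β replicate 1 (adjusted p = 0.0945, 0.0609 and 0.0609), Smurf1 and Ldlrad4 without untreated replicate 3 (adjusted p = 0.0880 and 0.0548), and Smurf1 and Pmepa1 without IL-1β replicate 3 (adjusted p = 0.0753 and 0.0582). Of 9 measured targets, 2 rose and 3 fell (55.6%, where 17.2% of all genes and 26% of those above background passed). Tgfbi, which encodes a matrix protein named for its induction by TGF-β, fell 3.62-fold, from 11.07 ± 0.13 to 9.21 ± 0.35 (SD, n = 3 arrays each, adjusted p = 1.18e-04). Ccn2, another TGF-β target, fell by 0.71 (adjusted p = 0.00191), while a dimmer probe set lay under background in both groups (means 4.56 and 4.52), and the mean of these probe sets, -0.37, did not pass (adjusted p = 0.14). Atoh8, a target of BMP signals, rose 2.97-fold (log2 fold change 1.57, adjusted p = 2.45e-04). Tsc22d1, known as a TGF-β-stimulated gene, rose by 0.52 on its brightest probe set. A dimmer probe set of Tsc22d1, also above background in both groups (means 6.79 untreated and 6.62 treated), went the other way, with -0.17. The mean of these probe sets did not pass (0.175, adjusted p = 0.336). Id4 fell by 0.36 (adjusted p = 0.0365), but did not pass with replicate number as a block (adjusted p = 0.0505) or without any 1 array except IL-1β replicate 3 (adjusted p = 0.0781 to 0.105).

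Of 14 other ligand genes, Inhbe, which encodes the activin βE subunit, fell to a mean under background, at least 1.74-fold lower (5.37 ± 0.26 untreated and 4.50 ± 0.19 treated, SD, n = 3 arrays each, adjusted p = 0.00396 from limma). Mstn, the myostatin gene, passed as lower (adjusted p = 0.0375) with both means under background, so that no fold is given, and it did not pass without any 1 array except IL-1β replicate 2 (adjusted p = 0.0697 to 0.135). Among 5 other receptor genes only Eng, which encodes the co-receptor endoglin, passed (log2 fold change 0.32, adjusted p = 0.0433), and not without any 1 array (adjusted p = 0.0679 to 0.151) or with each array centered on its median (adjusted p = 0.0749). Of these other ligand and receptor genes, 14.3% and 20% passed, near the 17.2% of all genes.

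How far the calls rest on single arrays was checked by leaving out each of the 6 arrays in turn. Of the 26 members that passed, 19 did so in every limma setting tried, 15 as higher and 4 (Bmp7, Bambi, Gdf10 and Chrdl1) as lower. The other 7, Bmp6, Bmpr2, Id3, Smad3, Tgfb1, Tgfb2 and Tgfbr2, lost their calls without at least 1 array, and each had a log2 fold change under 0.6 in size. Of the 19, Bmp4, Gdf10 and Gdf11 lost their calls when the test that the methods name took the place of limma. Their log2 fold changes were 0.57, -0.94 and 0.63, so not only the smallest changes depended on the choice of test.

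**Figure D5:**
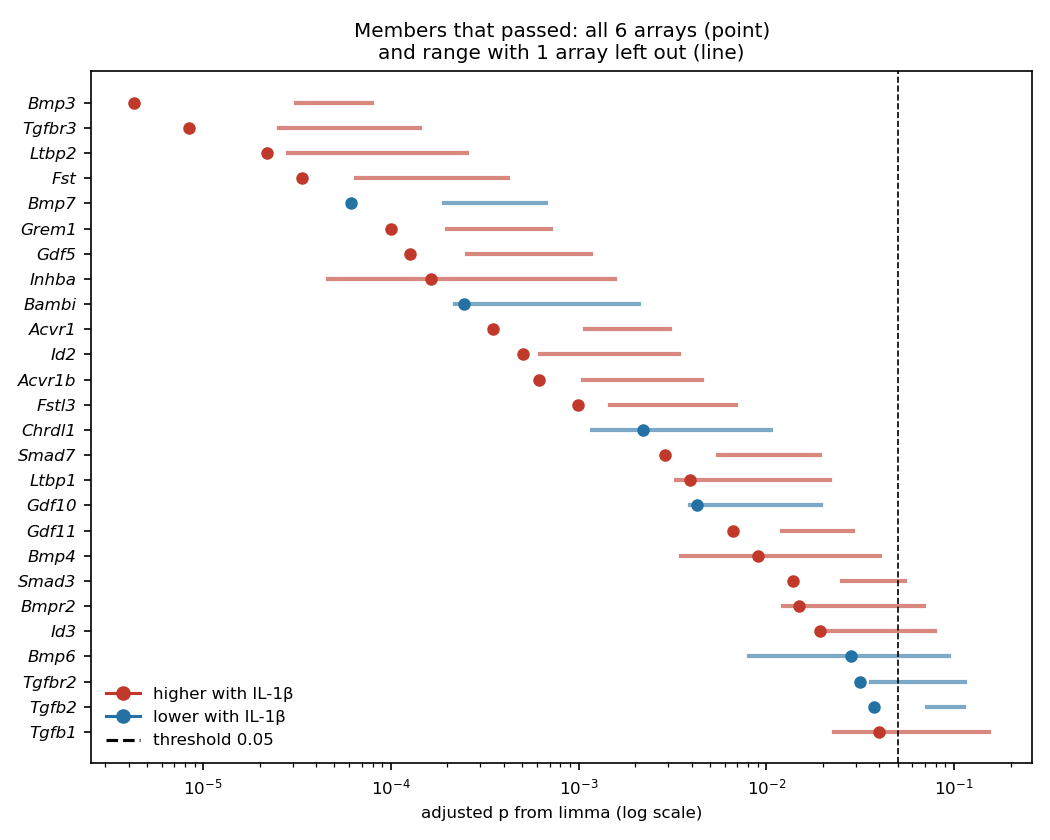
Adjusted p from limma (x axis, log scale) of the 26 members that passed, with a point for all 6 arrays and a line for the lowest to the highest value when 1 array was left out, red for higher and blue for lower with IL-1β. The dashed line marks the threshold of 0.05. For 19 members the whole line lies below the threshold, and for Tgfb2 it lies above it.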

How the data were processed

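The authors summarized the signals of Affymetrix GeneChip mouse ST arrays with RMA within this data set, which corrects the background and equalizes the distributions between arrays, and deposited 1 log2 value for each of 41345 probe sets on each of 6 arrays. The values were used as deposited. The platform's gene table names 1 gene for 23521 probe sets and several for 1820. The latter named no gene here, among them 2 that list Bmpr2 or Ltbp2 with another gene. Symbols of 23328 probe sets were looked up through Entrez IDs in a RefSeq table of the GRCm38.p6 assembly. For genes with several probe sets the brightest was used, which left 22180 genes.

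The test of IL-1β against untreated was that of limma (version 3.58.1, R 4.3.3; lmFit, then eBayes; no filter), with Benjamini-Hochberg adjustment over all genes, and the script was tested on simulated data. Intervals are at 95%. The t-test that the methods name was an alternative. A fold is given as at least N where 1 group mean was under the background level. The precision is limited by 3 arrays per group, and an exact permutation test could not give a p under 0.1. The p-values from limma weigh the group difference against the spread of these arrays within a group, moderated by the spread over all genes. The members and lists were chosen with earlier results of these data known. Per-array values are given for members that passed with a log2 fold change beyond 0.5, and for some others chosen after their values were seen. Other pathway genes were named by size of change among those that passed, up to 4 per direction and role, except Twsg1, Thbs1, Ltbp3 and Htra3, chosen after their values were seen. The deviations of arrays with the same replicate number correlated at 0.101, 0.379 and 0.189 across genes. Those of arrays with different numbers correlated at -0.34 to 0.226. The highest of these, untreated replicate 1 with IL-1β replicate 3, lay above the same-number values of 0.101 and 0.189. The values thus do not settle whether equal numbers mark matched arrays, and the number was used as a replicate block only in an alternative. The labels do not say what the number stands for.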

Additional observations from a re-analysis of the deposited data

How the results depend on the processing

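Direction and side of the threshold held in 14 alternatives for 16 of the 26 members that passed, and in the 13 that used limma for 19. The methods' t-test called 13 members higher and 5 lower after Benjamini-Hochberg and 31 in all at an unadjusted p under 0.05, and it called 14 and 3 of the other pathway genes. With replicate number as a replicate block 19 members were higher and 6 lower. Tgfb2 and Id4 lost their calls there, as given above, Htra3, named after its values were seen, gained one (adjusted p = 0.0428), and no other call of a member or other pathway gene changed. When 1 array was left out, 15 to 21 members were higher and 4 to 6 lower, 12 to 14 other pathway genes were higher and 4 to 6 lower (4 without IL-1β replicate 1), and the members' median was 0.10 to 0.19. The median was 0.13 after a second quantile normalization and 0.12 with median centering. Of the 23 members that did not pass, 6 passed in some alternative: Smad9 as given above, Inha and Nog as given above and with another variance prior (adjusted p = 0.0409 and 0.0419), Inha with array weights and when genes under background were left out (0.00732 and 0.0358), Chrd as given above, with array weights and after the second quantile normalization (0.0269 and 0.0421), Bmp1 with array weights (adjusted p = 0.0327) and Bmpr1b with array weights or without IL-1β replicate 2. Genes near 0 changed sign without passing: Smad1 had -0.0048 with median centering and -0.0239 to 0.10 with 1 array left out, Gdf6, whose probe set was under background in both groups so that its sign has no meaning, had -0.1192 with array weights and -0.0304 to 0.19, and Bmpr1a (-0.0097 to 0.13), Acvr2b (-0.0904 to 0.20) and Id1 (-0.12 to 0.0314) changed sign with 1 array left out. The causes were not tested. Signals near the background level, as of Bmp6, Bmp8a and Acvrl1, leave the least room to show a fall.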
